A study of Mus musculus with 16 samples.

Results

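Tcf7, Lef1, Slamf6 and Ccr7, 4 genes that mark stem-like and central memory T cells, were followed through single-cell RNA profiles of tumour-specific CD8+ T cells from the lymph node, skin, lung and liver. The members were taken from a list of central memory genes by name, and they are 4 of the 9223 genes in the deposited count table. The cells were CD8+ Thy1.1+ Pmel T cells, which carry a transgenic receptor for the melanocyte protein gp100, from C57BL/6 mice aged 16 weeks with melanoma-associated vitiligo, taken 45 days after the tumour was removed. All 4 groups shared this strain, disease state, age and time. By the labels they differed only in tissue, the lymph node being the one that drained the tumour. Each tissue was also a library of its own, so tissue and library cannot be told apart. No group without tumour or vitiligo was part of the design. The series' title calls the cells tissue-resident memory cells, and the labels do not give the number of mice. The 4 titles of each tissue differ only in an ending of the kind used for sequencing lanes, and the table has no column for each title, so each tissue was 1 library without replicates. Every interval below is a 95% interval that covers counting error only, and no p-value can be given for a difference between tissues.

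TCF-1, the product of Tcf7, and LEF-1 are related DNA-binding factors that maintain the self-renewing pool of memory and chronically stimulated CD8+ T cells and bind β-catenin at the end of the Wnt pathway. Slamf6 encodes Ly108, a self-binding SLAM family receptor that is used with TCF-1 to mark stem-like cells. Ccr7 encodes the chemokine receptor that leads naive and central memory T cells into lymph nodes toward CCL19 and CCL21. Tissue-resident memory cells are known for low levels of these homing genes and for CD69, CD103 (Itgae) and CXCR6.

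In the GRCm38 annotation Tcf7 lies on the minus strand at chr11:52252371-52283014, Lef1 on the plus strand at chr3:131110471-131224356, Slamf6 on the plus strand at chr1:171917515-171953170 and Ccr7 on the minus strand at chr11:99144196-99155077. RefSeq promoter windows of build GRCm38.p6, which run from 250 bases before to 50 bases after a start site, were found for Tcf7 (2 windows), Lef1 (4) and Slamf6 (1). They were searched on both strands for the core letters bound by TCF and LEF factors, CTTTGA and CTTTGT, and for the letters GTAAACA, bound by FOXO factors. These are present in 16%, 18.7% and 3.65% of all 32851 windows of this length. One Lef1 window, which lies inside the span of the gene, held CTTTGA at 2 places and CTTTGT at 1, all 3 on the other strand. A Tcf7 window at an internal start site held GTAAACA, beginning at base 2 of the transcript. No match overlapped another. The Slamf6 window held none of these letters. The following stretches show the Lef1 cluster and the Slamf6 window, each without the bases after its start site, and the Tcf7 match. They run 5′ to 3′ along the gene's strand with the matches in capitals.
Lef1, plus strand, chr3:131156044-131156293: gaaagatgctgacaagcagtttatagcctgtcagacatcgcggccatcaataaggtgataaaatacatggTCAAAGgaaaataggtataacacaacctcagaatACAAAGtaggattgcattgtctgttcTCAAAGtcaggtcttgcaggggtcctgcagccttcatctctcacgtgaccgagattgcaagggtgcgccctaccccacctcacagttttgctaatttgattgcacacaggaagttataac
Slamf6, plus strand, chr1:171917212-171917461: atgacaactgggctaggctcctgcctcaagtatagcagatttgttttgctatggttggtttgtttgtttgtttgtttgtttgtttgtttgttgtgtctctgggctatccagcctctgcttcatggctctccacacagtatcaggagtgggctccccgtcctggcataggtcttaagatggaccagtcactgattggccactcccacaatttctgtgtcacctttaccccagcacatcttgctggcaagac
Tcf7, minus strand, chr11:52282578-52282604: ctttataggaGTAAACAgacccccgcc
A match describes letters in a window, and nothing here measured binding of a factor to them.

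The table held 1625 cells from lymph node, 1224 from skin, 2322 from lung and 556 from liver, with median totals of 2649, 2517.5, 2943 and 3095.5 counts per cell. To compare shares of cells, each cell was thinned at random to 1886 counts, the 10th percentile, which left 1494, 1083, 2049 and 529 cells. All 11 CD8 T cell markers had counts in every tissue. Cd4 and Foxp3 were not among the table's genes, so neither could be checked. The highest genes of other lymphocyte lists were not rare after thinning. Cd40lg, of the CD4 list, was detected in 10.6% of lymph node and 20.3% of skin cells, but 2.27% of liver cells. Of the gamma delta genes, Trdc was detected in 8.63% of lymph node cells and Tcrg-C2 in 20.2% of lung cells. Rora, of the innate lymphoid list, was detected in 18.7% to 35.2% of cells by tissue. Whether other cell types gave these counts was not tested. Cell barcodes were shared by 2 tissues in 19 cases. The column names of lymph node and skin carry a 2 that the others lack, and counts of 14 genes named as pseudogenes summed to 7074 and 7766 CPM (counts per 1000000 counts of the tissue) in these tissues against 2149 in lung and 2102 in liver. The part of this library difference in the ratios below was not tested.

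The 4 genes stood highest in lymph node, and each was lower in all 3 other tissues by pooled level, as were 64.1% of genes in skin, 75.4% in lung and 75.9% in liver. Tcf7 had 254 counts in lymph node, 112 in skin, 54 in lung and 32 in liver, which are pooled levels of 56.0 CPM (49.4 to 63.4), 34.0 (28.0 to 40.9), 6.69 (5.03 to 8.73) and 16.6 (11.4 to 23.4). None of these intervals overlapped, so the order was lymph node, skin, liver, lung. Relative to lymph node, Tcf7 was 1.65-fold lower in skin (1.31 to 2.08), 3.38-fold lower in liver (2.33 to 5.04) and 8.38-fold lower in lung (6.22 to 11.5). Skin stood 2.05-fold above liver (1.37 to 3.14) and liver 2.48-fold above lung (1.55 to 3.91), both beyond counting error.

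Lef1, the partner factor, had a single count in skin, where Tcf7 had 112. Lef1 had 63 counts in lymph node, 1 in skin, 29 in lung and 4 in liver, at 13.9 CPM (10.7 to 17.8), 0.304 (0.00769 to 1.69), 3.59 (2.41 to 5.16) and 2.07 (0.565 to 5.31). Lung was 3.87-fold below lymph node (2.46 to 6.23) and liver 6.70-fold below (2.49 to 25.4). For skin the ratio of lymph node to skin was 45.8, with a wide interval of 7.92 to 1836 because it rests on 1 count. Lung stood above skin by a ratio of 11.8 (1.96 to 483), whereas liver could not be told from skin (6.83, 0.676 to 336) or from lung. Skin thus stood above lung for Tcf7 and below it for Lef1, but in cells with a Cd8a or Cd8b1 count and no count of 13 genes of other cell types, a restriction added after the data were seen, the skin to lung ratio of Lef1 was 0.153 with an interval of 0.00359 to 1.02.

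Slamf6, the receptor, was low in all 3 peripheral tissues. It had 142 counts in lymph node, 8 in skin, 23 in lung and 8 in liver, at 31.3 CPM (26.4 to 36.9), 2.43 (1.05 to 4.79), 2.85 (1.81 to 4.28) and 4.15 (1.79 to 8.18). Lymph node stood 12.9-fold above skin (6.37 to 30.4), 11.0-fold above lung (7.05 to 17.9) and 7.55-fold above liver (3.73 to 17.8). One liver cell, called a doublet, held 3 of the 8 liver counts, and without doublets the liver to lymph node ratio was 0.0871 (0.0279 to 0.208), against 0.132. The 3 peripheral levels could not be ordered, since their 3 ratios all had intervals that included equality, such as skin over liver at 0.586 (0.192 to 1.79). Lung over liver was 0.687, and 1.06 without doublets (0.396 to 3.59).

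Ccr7, the homing receptor, had 82 counts in lymph node, 39 in skin, 29 in lung and 3 in liver, at 18.1 CPM (14.4 to 22.5), 11.8 (8.42 to 16.2), 3.59 (2.41 to 5.16) and 1.56 (0.321 to 4.55). It was 5.04-fold lower in lung than in lymph node (3.26 to 7.98) and 11.6-fold lower in liver (3.84 to 57.5), and lung and liver could not be told apart. Skin was 1.53-fold below lymph node (1.03 to 2.30), a difference that did not hold. A single skin cell held 20 of the 39 counts, or 51.3%. That cell had 5585 counts in all, with 3 counts of Cd3e, 8 of Cd8a and 7 of Trac, none of Cd74, H2-Aa or H2-Ab1, and it was not called a doublet. With the cell of most Ccr7 counts left out of each tissue, the skin to lymph node ratio was 0.344 (0.197 to 0.575), against 0.655 with all cells. With only the cells that had a Cd8a or Cd8b1 count and no count of the 13 genes of other cell types it was 1.06 (0.671 to 1.66). Ccr7 in skin was thus carried by few cells, and its position relative to lymph node depends on them.

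**Figure D1:**
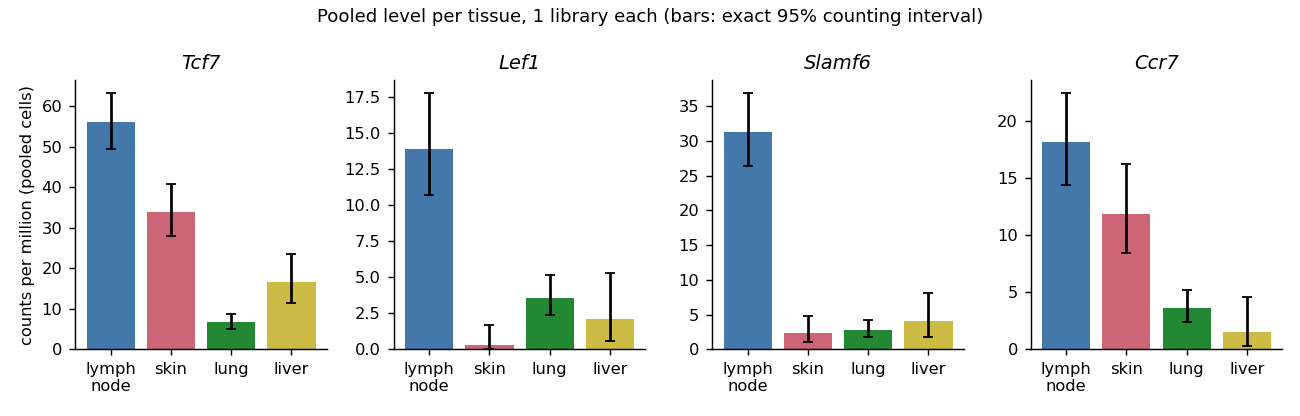
Pooled level of each gene in lymph node, skin, lung and liver, in CPM on a linear axis that differs between panels; each bar is 1 library and the error bars are exact 95% counting intervals. In skin Tcf7 was at 34.0 CPM, Lef1 at 0.304 and Slamf6 at 2.43, and Ccr7 at 11.8, of which a single cell gave 51.3% of the counts.

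Counted as genes at least 2-fold below lymph node, the members were 2 of 4 in skin, 4 of 4 in lung and 4 of 4 in liver. Among all genes with at least 20 summed counts the same holds for 10.3% in skin, 18.3% in lung and 22.0% in liver. The median gene was also lower outside the lymph node, by a log2 ratio of -0.20 in skin, -0.41 in lung and -0.45 in liver. TMM factors moved log2 ratios up by 0.17 in skin, 0.38 in lung and 0.40 in liver, and median-ratio factors by 0.20, 0.40 and 0.43. Under TMM the lung to lymph node ratio was 0.155 for Tcf7, 0.336 for Lef1, 0.118 for Slamf6 and 0.258 for Ccr7. All 4 thus stayed below lymph node under this scaling, while the skin ratio of Ccr7, 0.737 (0.490 to 1.09), no longer excluded equality.

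Pooled levels can fall because fewer cells hold a transcript or because each cell holds less, and at these counts the 2 cannot be told apart. At equal depth Tcf7 was detected in 144 of 1494 lymph node cells, or 9.64% (8.19 to 11.2), in 5.63% of skin cells (4.34 to 7.18), 1.42% of lung cells (0.95 to 2.03) and 4.16% of liver cells (2.62 to 6.23). Without thinning the shares were 12.7%, 8.25%, 2.11% and 5.22%. Cells with Tcf7 held 1.23 counts on average in lymph node and 1.11, 1.10 and 1.10 in skin, lung and liver (all counts, without thinning). Most of these cells had 1 count, 166 of 206 in lymph node and 90 of 101 in skin, so this mean cannot tell fewer expressing cells from less transcript in each.

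Lef1 was detected in 2.01% of lymph node cells at equal depth (1.36 to 2.85), in 0 of 1083 skin cells (exact interval 0 to 0.340, and up to 0.277% by the floor of 3 counts), in 0.634% of lung cells (0.338 to 1.08) and in 0.378% of liver cells (0.0458 to 1.36). Slamf6 was detected in 5.35% of lymph node cells (4.27 to 6.62) and in 0.369%, 0.342% and 0.756% of skin, lung and liver cells. Ccr7 was detected in 2.34% of lymph node cells (1.64 to 3.24), 0.923% of skin cells (0.444 to 1.69), 0.488% of lung cells and 0.567% of liver cells. Without thinning, the shares in lymph node, skin, lung and liver were 2.34%, 0.0817%, 0.947% and 0.719% for Lef1, 6.83%, 0.572%, 0.904% and 0.899% for Slamf6, and 3.32%, 0.980%, 0.732% and 0.540% for Ccr7.

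Low shares of this kind are also reached by marker genes of other cell types. As a background, 13 genes of B cells, myeloid cells and airway epithelium were measured in the same cells at the same depth, a set chosen after their values were seen. The highest was Ighm in lymph node, at 2.07% of cells, and in skin, at 1.11%, Lyz2 in lung, at 5.37%, and Scgb1a1 in liver, at 2.08%. The median of the 13 was 0.469% in lymph node, 0.0976% in lung and 0% in skin and liver. Tcf7 stood above the highest of them in lymph node, skin and liver, and Slamf6 in lymph node. This holds for the 13 only, since other marker genes in the table were left out. Among those, the keratinocyte marker Perp was detected in 4.16% of skin cells and Apoe in 2.22%, both above Ighm there. Pecam1 was detected in 2.21% of lymph node cells. Cst3, listed as a myeloid marker, was detected in 35.2% to 37.6% of cells by tissue, above every member. In liver the intervals overlapped, at 2.62 to 6.23 for Tcf7 and 1.04 to 3.69 for Scgb1a1. In lymph node Ccr7 (2.34%) and Lef1 (2.01%) lay next to Ighm. Ighm was not evenly spread there, at 247 CPM in Lef1 cells and 123 in Ccr7 cells against 6.73 in cells with no member. It is therefore a poor measure of background for Lef1 and Ccr7. The 4 members in lung, and Lef1, Slamf6 and Ccr7 in skin and liver, lay below the highest background gene of their tissue. This cut rests on 1 gene in each tissue. In lung all 4 members lay above the median of the 13, and in skin the next gene after Ighm was Cd79b, at 0.277%. Those shares are therefore read neither as expression nor as its absence.

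**Figure D2:**
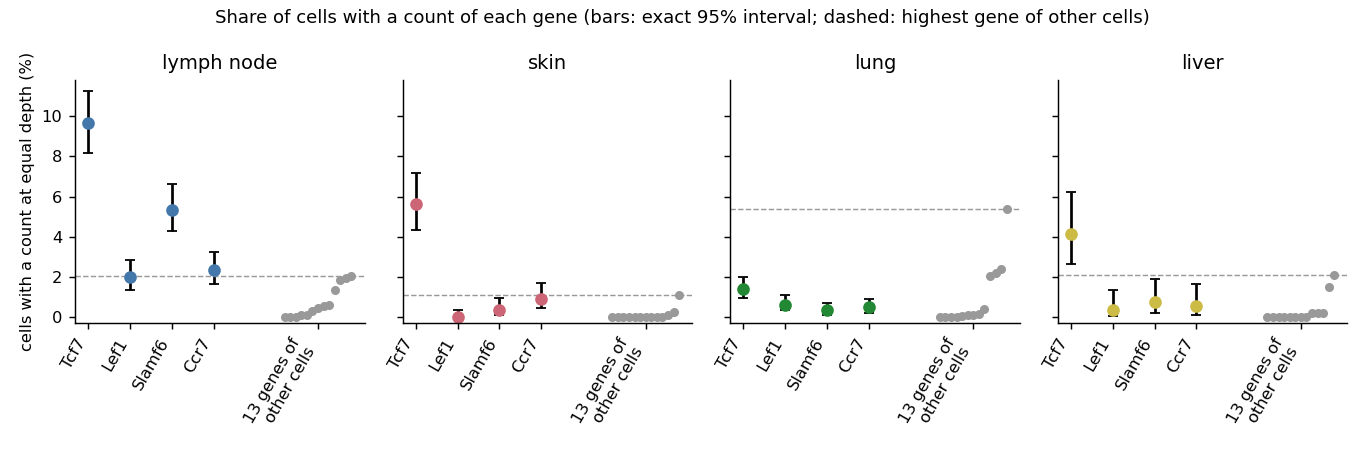
Share of cells with at least 1 count of each gene at equal depth, in percent, with exact 95% intervals, beside the shares of 13 genes of other cell types (grey points, dashed line at the highest). Tcf7 lay above the dashed line in lymph node, skin and liver, at 9.64%, 5.63% and 4.16%, and below it in lung, at 1.42%. In liver its interval overlapped that of the highest gene, Scgb1a1, which is not drawn.

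Within the lymph node the 4 genes were found in the same cells more often than in the remaining cells, for all 6 pairs at this depth. Thinned further, to 1000 counts, Tcf7 was present in 4.55% of Ccr7 cells (0.115 to 22.8), below the 5.14% of all lymph node cells, so the excess for that pair was not seen there. At equal depth 228 of 1494 cells (15.3%, 13.5 to 17.2) held at least 1 member, of which 179 held 1, 37 held 2, 12 held 3 and none held 4. Among cells with Lef1, 33.3% also held Tcf7 (17.3 to 52.8), against 9.15% of cells without Lef1 (7.72 to 10.7). Among the same cells 33.3% held Slamf6, against 4.78% (3.75 to 6.00), and 30.0% held Ccr7 (14.7 to 49.4), against 1.78% (1.16 to 2.59). In the opposite reading 25.7% of Ccr7 cells held Lef1 (12.5 to 43.3) against 1.44% of the others. This pair was less marked in the restricted cells, where 8.33% of Ccr7 cells held Lef1 (1.03 to 27.0) against 1.25%, with overlapping intervals.

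Slamf6 marked cells with each of the others too. It was present in 15.3% of Tcf7 cells (9.83 to 22.2) against 4.30% of cells without Tcf7 (3.28 to 5.52), and in 31.4% of Ccr7 cells (16.9 to 49.3) against 4.73%. Tcf7 was present in 27.5% of Slamf6 cells (18.1 to 38.6) against 8.63%, and in 31.4% of Ccr7 cells against 9.12%. The members differed in how often they appeared alone: 21 of 30 Lef1 cells (70.0%, 50.6 to 85.3) and 21 of 35 Ccr7 cells (60%, 42.1 to 76.1) held another member, as did 35 of 80 Slamf6 cells (43.8%, 32.7 to 55.3), but only 33 of 144 Tcf7 cells (22.9%, 16.3 to 30.7). Cells of 1 library are not replicates, so these shares describe this lymph node library.

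**Figure D3:**
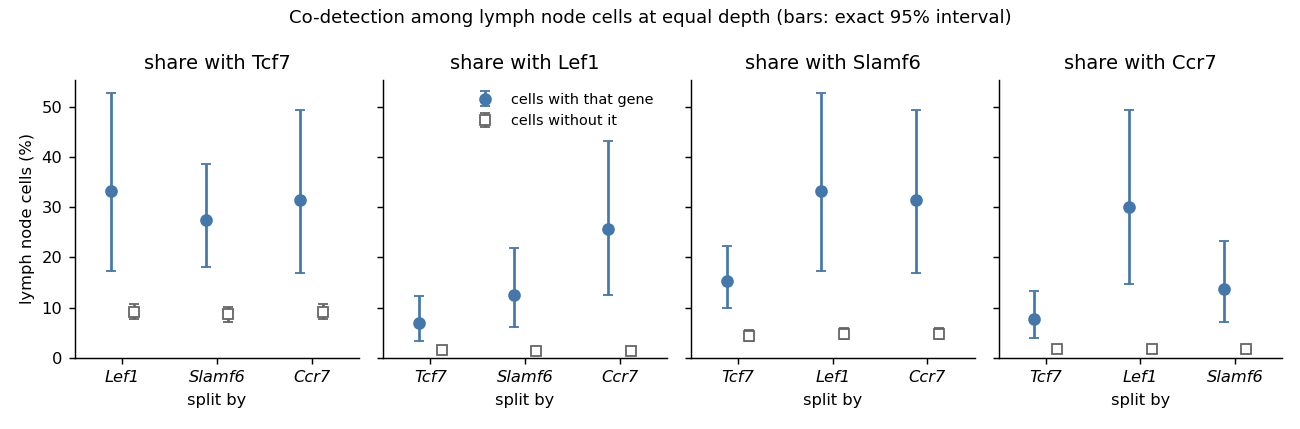
Co-detection of the 4 genes in lymph node cells at equal depth: each panel gives the percent of cells with 1 gene among cells with (filled) and without (open) each of the other 3, with exact 95% intervals. Every filled point lay above its open partner at this depth, with Slamf6 among Tcf7 cells at 15.3% against 4.30%. The excess of Tcf7 among Ccr7 cells was not seen at 1000 counts.

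Outside the lymph node few cells held 2 members. In skin 75 cells held a member and 0 of 1083 held 2 or more (0 to 0.340%), against 49 of 1494 lymph node cells (3.28%, 2.44 to 4.31). None of the 61 skin cells with Tcf7 held another member (at most 5.87%), against 22.9% of lymph node Tcf7 cells. Without thinning, 1 of 101 skin Tcf7 cells held Ccr7. In lung 3 of 56 positive cells held 2 members, in each case Lef1 with Ccr7: 3 of 10 Ccr7 cells held Lef1 (30%, 6.67 to 65.2) against 0.490% of the other lung cells. None of the 29 lung Tcf7 cells held another (at most 11.9%). Without thinning, 8 of 2322 lung cells held 2 or more members and 1 of them all 4. In liver 1 of 30 positive cells held 2, Tcf7 with Slamf6. Skin and lymph node were compared at equal depth, but Lef1, Slamf6 and Ccr7 were also rarer in skin as a whole. Only 14 of 1083 skin cells held any of them. Multiplying the shares in skin gives 0.563 cells with both Tcf7 and Ccr7 and 0.225 with both Tcf7 and Slamf6. With so few to be found, a count of 0 cannot show that co-detection with Tcf7 differs between skin and lymph node.

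The lymph node cells with a member also differed from those with none in many other genes, and the genes that stood higher included several of the central memory program. Of 5447 genes with at least 20 CPM in either set, 379 (6.96%) were at least 1.5-fold higher in cells with a member and 435 (7.99%) at least 1.5-fold lower. Of the 21 other central memory genes measured here, without those used to split the cells, 14 were at least 1.5-fold higher and 0 at least 1.5-fold lower. Of 17 terminal effector genes, 0 were higher by that measure and 13 lower, and of 18 interferon stimulated genes 0 were higher and 10 lower. The shift was not confined to these lists. Of 7 exhaustion genes 3 were higher and 1 lower, and of 13 homing genes 6 were higher and 0 lower. Of 17 residency genes 1 was higher and 8 lower, and of 11 proliferation genes 0 were higher and 4 lower. The SLAM list had 3 higher and 1 lower of 11, and the Wnt list 2 and 1 of 13. These counts describe 1 library and cells chosen by related genes, and no test was made of them.

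Izumo1r, which encodes the folate receptor 4, was 12.4-fold higher (9.07 to 17.0), at 206 against 16.7 CPM. Id3, a transcription regulator of memory precursors, was 6.97-fold higher (4.27 to 11.4), and Wnt10a, a Wnt ligand, 7.48-fold higher (4.87 to 11.5). Other genes in this group were Tspan32 at 5.38-fold, Gpm6b at 5.09-fold, Tnfsf8 (CD30 ligand) at 4.38-fold, Tox at 4.37-fold, Asap1 at 3.99-fold, Jun at 3.93-fold, Gimap7 at 3.10-fold, Gpr183 at 2.83-fold and the costimulatory receptor gene Cd28 at 2.43-fold. Klf2, a factor that drives S1pr1, was 2.24-fold higher (1.97 to 2.54). Il7r, often listed with central memory, did not follow, at 379 against 451 CPM.

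On the other side, Gzma, which encodes granzyme A, was 9.81-fold lower in cells with a member (7.48 to 13.1), at 84.1 against 824 CPM, and Gzmb was 2.39-fold lower (2.10 to 2.72). The antiviral membrane protein genes Ifitm1, Ifitm2 and Ifitm3 were 4.14-fold, 4.32-fold and 5.04-fold lower, and the histone gene Hist1h2ap 5.02-fold lower. Csf1 was 2.82-fold lower, Ccl4 2.08-fold, Lgals1 2.01-fold and Ccl5 1.95-fold. The residency receptor gene Cxcr6 was detected in 61.4% of cells with a member (54.8 to 67.8) against 94.5% of those with none (93.2 to 95.7), and Itgae in 32.5% against 48.8%, while Cd69 was detected in 13.6% and 13.7%. Cells with 2 or more members lay further out: 24.5% held Cxcr6 (13.3 to 38.9), 14.3% Gzmb (5.94 to 27.2) and 55.1% Klf2 (40.2 to 69.3).

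The 4 genes did not pick out the same neighbours. Klf2 was present in 63.3% of Lef1 cells and 62.9% of Ccr7 cells against 24.3% of Tcf7 cells (17.6 to 32.1), the latter close to the 20.4% of cells with no member. Tox was present in 23.3% of Lef1 cells (9.93 to 42.3), 22.5% of Slamf6 cells (13.9 to 33.2), 7.64% of Tcf7 cells (3.87 to 13.3) and 5.71% of Ccr7 cells (2 of 35), against 2.69% of cells with none. Gzmb was present in 6.67% of Lef1 cells, 15.0% of Slamf6 cells, 17.1% of Ccr7 cells and 38.2% of Tcf7 cells (30.2 to 46.7), against 55.7% (52.9 to 58.4). A Tcf7 count, with or without another member, thus marked a broader set of lymph node cells. These were closer to the cells with no member in Klf2 and Gzmb than those with Lef1 or Ccr7.

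Markers of cell identity moved with the members in lymph node. Cd8a was detected in 83.3% of cells with a member (77.8 to 87.9) and 67.3% of cells with 2 or more (52.5 to 80.1), against 94.2% of cells with none. Thy1 was detected in 53.5%, 36.7% and 70.1%, and Cd8a or Cd8b1 had a count in 221 of 228 cells with a member and 44 of 49 with 2 or more. The 11 CD8 T cell markers, all present in each set, summed to 26690 CPM with a member, 25556 with 2 or more and 28353 with none. Of 9 B cell markers in the table, 7 had a count with a member, 3 with 2 or more and 9 with none, at sums of 90.4, 181 and 39.3 CPM. Most of this sum was Ighm, at 50.8 CPM with a member, 158 with 2 or more and 6.73 with none, while Ms4a1 and Ebf1 had no count in cells with a member, and Cd79b was at 6.34 against 11.8 CPM and at 0 with 2 or more. The 8 myeloid markers summed to 550 CPM with a member and 727 with none, with Csf1r and Adgre1 at 0. The co-detection was also read under a restriction, to the 1300 lymph node cells with a CD8 count and none of the 13 genes of other cells. Among these, 14.3% held a member and 2.62% held 2 or more (1.82 to 3.64). There Tcf7 was present in 33.3% of Lef1 cells and 26.9% of Slamf6 cells. Izumo1r was 13.9-fold higher with a member (9.98 to 19.7). Lef1, however, was present in 8.33% of Ccr7 cells (1.03 to 27.0), against 25.7% of Ccr7 cells without the restriction. The restriction also leaves out cells with an Ighm count, and Ighm was higher in Lef1 and Ccr7 cells. It kept 18 Lef1 cells and 24 Ccr7 cells, against 30 and 35 before. The fall for this pair therefore does not measure the part of these markers in the co-detection, which was not tested.

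Tcf7 was the only member with enough positive cells in the periphery to describe them: 61 in skin, 29 in lung and 22 in liver. In lung the Tcf7 share lay below the highest background gene, so the 29 lung cells are described only as cells with a count. In all 4 tissues the cells with a Tcf7 count less often held Gzma. Its share was 5.56% of lymph node Tcf7 cells (2.43 to 10.7) against 21.2% of lymph node cells with no member (19.0 to 23.6), and 13.1% in skin (5.84 to 24.2) against 28.6% (25.8 to 31.5). It was 65.5% in lung (45.7 to 82.1) against 92.0% (90.7 to 93.1), and 40.9% in liver (20.7 to 63.6) against 84.6% (81.1 to 87.6). None of the 4 pairs of intervals overlapped, in tissues whose own Gzma shares differed widely.

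Other genes divided the tissues. Il7r was detected in 59.1% of liver Tcf7 cells (36.4 to 79.3) against 24.0% (20.4 to 28.0) and in 41.4% of lung Tcf7 cells (23.5 to 61.1) against 22.1% (20.3 to 24.0), the lung intervals overlapping slightly. In lymph node it was 50.7% against 54.7%, and in skin 8.20% against 12.1%. Id3 was detected in 13.1% of skin Tcf7 cells (5.84 to 24.2) against 4.76% (3.53 to 6.26) and in 7.64% of lymph node Tcf7 cells (3.87 to 13.3) against 1.58% (0.968 to 2.43). No Id3 was detected in the 29 lung or 22 liver Tcf7 cells, which allows up to 11.9% and 15.4%. Klf2 was present in all 29 lung Tcf7 cells (88.1 to 100) against 78.1% of lung cells with no member (76.2 to 79.9).

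For the residency genes in skin, the intervals of cells with Tcf7 and of cells with no member overlapped. Itgae was detected in 67.2% of skin Tcf7 cells (54.0 to 78.7) against 60.4%, Cd69 in 55.7% (42.4 to 68.5) against 57.8%, and Nr4a1, an early response gene downstream of the T cell receptor, in 82.0% (70.0 to 90.6) against 85.6%. Cxcr6 was detected in 75.4% (62.7 to 85.5) against 85.4%. Cd8a or Cd8b1 had a count in 60 of these 61 cells, no count of the 9 B cell markers was present, and 1 was called a doublet.

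**Figure D4:**
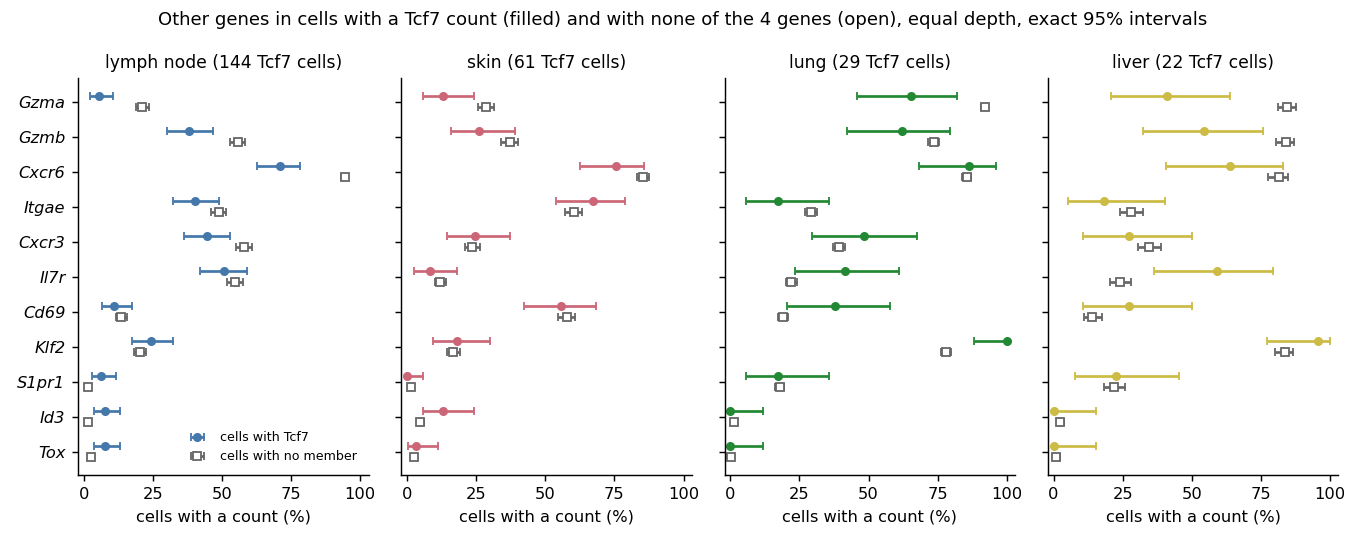
Percent of cells with a count of other genes among cells with Tcf7 (filled) and cells with none of the 4 genes (open) in each tissue, at equal depth with exact 95% intervals. Gzma was lower in the Tcf7 cells of all 4 tissues, at 5.56% against 21.2% in lymph node and 40.9% against 84.6% in liver, and Il7r was higher in those of liver, at 59.1% against 24.0%.

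The wider central memory list held genes that went both ways. Of its 25 genes with at least 20 summed counts, 13 were at least 2-fold lower in skin than in lymph node, 11 in lung and 10 in liver. Without the 4 members these were 11, 7 and 6 of 21, or 52.4%, 33.3% and 28.6%, beside 10.3%, 18.3% and 22.0% of all genes. Their median log2 ratios were -1.06, -0.71 and -0.63, beside -0.20, -0.41 and -0.45. Counting any decrease, 71.4%, 90.5% and 76.2% of the 21 were lower, beside 64.1%, 75.4% and 75.9% of all genes, so the share in liver was near the background. Tnfsf8 was 2.88-fold lower in skin, 33.5-fold in lung (18.8 to 65.9) and 8.01-fold in liver. Ltb, the gene of lymphotoxin beta, had ratios to lymph node of 0.355, 0.363 and 0.368 in skin, lung and liver. Other genes of the list went up in skin: Xcl1, a chemokine gene, was 14.8-fold higher (13.1 to 16.7), Icos 3.65-fold and Id3 2.06-fold (1.53 to 2.77), and Id3 was 3.43-fold lower in lung.

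**Figure D5:**
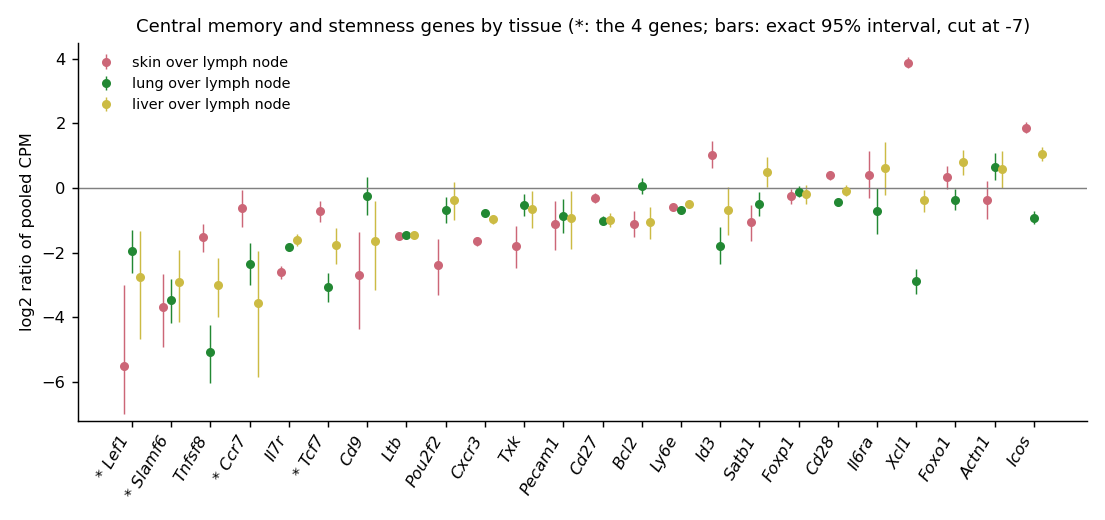
Log2 ratio of pooled CPM over lymph node for 24 of the 25 measured central memory and stemness genes, in skin, lung and liver, ordered by the mean over the 3 tissues; bars are exact 95% intervals and asterisks mark the 4 genes. Lef1, Slamf6, Ccr7 and Tcf7 lie toward the low end, and Xcl1 and Icos rise in skin.

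Of 26 measured partners of TCF and LEF and members of the Wnt pathway, 1 was at least 2-fold lower in skin, 9 in lung and 4 in liver. These are 3.85%, 34.6% and 15.4% of the list, beside 10.3%, 18.3% and 22.0% of all genes. By the same measure 1, 0 and 0 were higher, beside 5.59%, 3.58% and 3.92% of all genes. Wnt10a was the ligand that followed the members, with 107 counts in lymph node, 3 in skin, 0 in lung and 2 in liver. It was at least 63.5-fold lower in lung than its lymph node level of 23.6 CPM, and the ratio of lymph node to skin was 25.9 (8.63 to 128). Axin2, a common target of Wnt signalling, did not follow, at 9.71 CPM in lymph node, 17.0 in skin, 4.21 in lung and 8.82 in liver.

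Of 12 measured genes of the SLAM family and its adaptors, Slamf6 included, 2 were at least 2-fold lower in skin, 3 in lung and 4 in liver. These are 16.7%, 25% and 33.3% of the list, beside 10.3%, 18.3% and 22.0% of all genes. The related receptor gene Cd84 was 1.54-fold lower in skin (1.28 to 1.85), 3.28-fold in lung (2.76 to 3.91) and 3.52-fold in liver (2.58 to 4.91), and Ly9 was 1.62-fold, 1.84-fold and 2.23-fold lower. Cd48 went the other way in lung, 2.41-fold higher (2.31 to 2.52), and liver, 2.18-fold (2.07 to 2.30). In skin the ratio of Slamf6, with its interval of 6.37 to 30.4, lay outside those of Cd84 and Ly9.

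Of the genes of lymph node homing and CCR7 signalling, 5 of 15 were at least 2-fold lower in skin, 3 of 16 in lung and 3 of 15 in liver, while 1, 4 and 5 were at least 2-fold higher. The lower genes were 33.3%, 18.8% and 20% of those measured, in lung and liver near the 18.3% and 22.0% of all genes. The higher genes were 6.67%, 25% and 33.3%, beside 5.59%, 3.58% and 3.92%. Klf2 was 2.06-fold lower in skin (1.84 to 2.30) and 5.85-fold higher in liver (5.48 to 6.25). S1pr1, the receptor for exit from tissue, was at 15.4 CPM in lymph node, 5.47 in skin, 99.4 in lung and 144 in liver. In lymph node S1pr1 was detected in 5.26% of cells with a member against 1.66% of those with none, and in 9 of 144 Tcf7 cells and 0 of 35 Ccr7 cells.

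By distance between levels over the 4 tissues, on the scale of log2(CPM + 1) centred for each gene, the nearest of 4759 genes differed for each member. Those of Tcf7 included Pde7a, Actn2, Pdcd11 and Per3, at distances of 0.588 to 0.679. For Lef1 they were Slfn1, Mx1, Ifit3, Il7r and Igf2bp3 (0.787 to 0.947), and for Slamf6 Ifit3b, Ifit3, Ddx60, D17H6S53E and Il7r (0.585 to 0.955). Ccr7 had Rab6b, Zbtb20, Tgtp2, Zufsp and Psme2b (0.133 to 0.496). Lef1 and Slamf6 shared Ifit3 and Il7r among their neighbours, and lay closer to each other (1.25) than Lef1 did to Tcf7 (2.91) or Ccr7 (2.87) or Slamf6 to Ccr7 (2.29), whereas Tcf7 and Ccr7 lay 1.47 apart. With 4 points for each gene, which share library and depth, this is a description only.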

How the data were processed

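The deposited table held whole-number counts for 9223 genes in 5727 cells, made by the authors with Bowtie and RSEM on build mm10, per the submitters' processing notes; these notes do not say whether the counts are molecules or reads. Tissues were read from column prefixes, which left 0 columns unmapped. Tissue totals ran from 1928185 to 8072278 counts. From the counts were computed: CPM over all cells of a tissue with exact Poisson intervals, ratios with exact conditional binomial intervals, and shares with Clopper-Pearson intervals after thinning each cell to 1886 counts. No test between tissues was made. Doublets were called with Scrublet in scanpy 1.11.5 at an expected rate of 0.05 (62 cells, 1.08%) and kept. Scaling alternatives used edgeR 4.0.16 (TMM) and DESeq2 1.42.0 (size factors). The members and lists were chosen with earlier results of these data known. Named genes were the members, list genes, the 12 highest and 10 lowest lymph node genes by interval bound among those of at least 50 CPM, and the 5 nearest genes of each member, a few of which are not reported here. Alternatives were a second seed, thinning to 1000 counts, no thinning, doublets removed, ribosomal and mitochondrial genes removed, the top cell left out and count minimums.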

Additional observations from a re-analysis of the deposited data

How the results depend on the processing

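No paired analysis was possible because the table has no column for the numbered titles and each tissue is 1 library; for the same reason no replicate could be left out. Of 336 values recomputed for 59 results, 305 stayed within their counting interval or their call. Shares moved with depth. At 1000 counts Tcf7 was in 5.14% of lymph node, 3.29% of skin, 0.818% of lung and 1.80% of liver cells, and Lef1, Slamf6 and Ccr7 in 1.25%, 3.38% and 1.38% of lymph node cells. There any member was in 9.84% and 2 or more in 1.19%, with Tcf7 in 15.0% of Lef1, 16.7% of Slamf6 and 4.55% of Ccr7 cells, the last below the share of all cells, and Slamf6 in 13.6% of Ccr7 cells. Without thinning Tcf7 was in 12.7%, 8.25% and 2.11% of lymph node, skin and lung cells, Slamf6 in 6.83% of lymph node and 0.904% of lung cells, and Ccr7 in 3.32% of lymph node cells. Any member was then in 19.4% of lymph node, 9.80% of skin and 4.22% of lung cells, and 2 or more in 4.68% of lymph node cells. Requiring 2 or more members gave 1174 higher and 1462 lower genes in lymph node cells, from fewer cells, and no minimum level gave 944 and 1523. With at least 100 counts, 6 central memory genes were 2-fold lower in liver. The skin to lymph node ratio of Ccr7 was 0.344 without the top cells and turned to 1.06 in the restricted cells, where Lef1 was in 8.33% of Ccr7 cells and the skin to lung ratio of Lef1 was 0.153 (0.00359 to 1.02), its interval now reaching equality. The cause was not tested for these.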

Other observations

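Ighm, the gene of the immunoglobulin mu heavy chain, was singled out after its values were seen. In lymph node cells it stood at 247 CPM in cells with Lef1, 123 with Ccr7, 56.7 with Slamf6 and 25.7 with Tcf7, against 6.73 CPM in cells with none of the 4 genes. In the Lef1 cells 2 of the 9 B cell markers had a count, at a sum of 258 CPM, and in the Ccr7 cells 4 of 9, at 152 CPM. The CD8 T cell markers summed to 20177 CPM in Lef1 cells and 21982 in Ccr7 cells, against 28353 in cells with none. A count of any of the 13 genes of other cells was present in 7 of 30 Lef1 cells (23.3%) and 8 of 35 Ccr7 cells (22.9%) of lymph node, 19 of 144 Tcf7 cells (13.2%) and 102 of 1266 cells with none (8.06%). In skin 0 of 61 Tcf7 cells had such a count.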
